A study of Mus musculus with 21 samples.

Results

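Pax8, Crym, Thra, Thrb, Slc16a10, Dio1 and Klf9 are genes tied to thyroid hormone, from the factor that builds the thyroid gland to a target of the hormone, and their RNA was measured in the mouse cecum. They are 7 of the 25361 genes in the count table, and all 7 were among the 15652 genes that passed the filter on low counts. Pax8 and Crym were picked because they had risen on the diet with the most broccoli powder. Their values in that comparison are therefore a description, given with no p, and their calls are stated but support nothing. The other 5 genes were added for what they are known to do.

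Messenger RNA was sequenced from the cecum, a blind pouch of the large bowel, of C57BL/6 mice, a common inbred strain. At 3 weeks of age the mice were put on the Total Western Diet, a rodent diet modelled on human Western nutrient intake, for 6 weeks. For a further 3 weeks they ate that diet with 0% (6 libraries), 0.5% (5 libraries), 1.0% (5 libraries) or 2.5% (5 libraries) broccoli powder. All 21 mice thus shared strain and base diet, and no allele, sex or cage is named in the labels used here. Library totals ran from 28514263 to 58594569 counts. Levels are given in CPM, the share of a library's counts on a fixed scale, corrected by TMM for differences in RNA composition between libraries.

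Thyroid hormone is released by the thyroid mostly as thyroxine (T4), and tissues take it up through membrane transporters and turn it into the active triiodothyronine (T3) with deiodinases. T3 then acts through nuclear receptors that bind DNA beside target genes and switch between repression and activation. In the mouse intestine the alpha receptor is the one known for postnatal maturation of the epithelium and for crypt cell proliferation. Pax8 is a paired-box transcription factor needed to form the thyroid gland, where it drives thyroglobulin, and it is also made in kidney and reproductive tract.

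The tissue carried the RNA of large bowel epithelium. Car1, a carbonic anhydrase of colonocytes, averaged 4320 CPM over the 21 libraries, and Epcam, an adhesion protein of epithelia, averaged 693 CPM. The 10 markers of that epithelium, 9 of them tested, summed to 17600 to 19000 CPM at 2.5% and 14200 to 18200 CPM at 0%. Defining genes of the thyroid gland were low, with thyroglobulin (Tg) at a mean of 0.217 CPM and Foxe1 at 0.011 CPM. Nkx2-1 was listed at 0 in every library, as were Sycn of the epithelium markers, Synm of smooth muscle and Neurod1 of enteroendocrine cells. A listed 0 is therefore not read as absence. Duox2, an oxidase shared by thyroid and gut epithelium, averaged 60.1 CPM. Of the 12 thyroid gland markers all 12 were in the table and 9 were tested. Their summed level ran from 26.6 to 78.0 CPM per library at 2.5% and from 36.8 to 240 CPM at 0%. The 240 CPM was in replicate 5 at 0%, and the next highest library of that diet stood at 85.9 CPM.

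**Figure D1:**
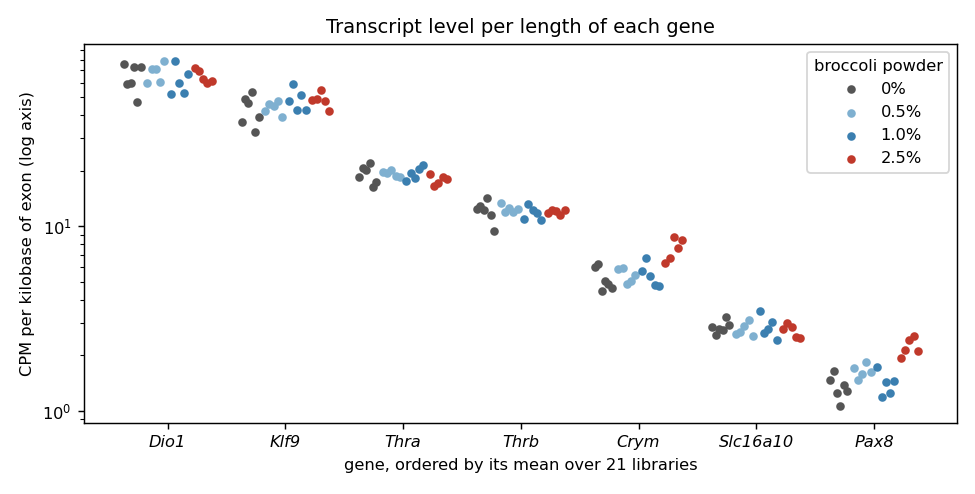
CPM per kilobase of exon on a log axis, with 1 point per library, coloured by diet and genes ordered by their mean. Dio1 and Klf9 sit highest, at means of 64.9 and 45.9, and Pax8 lowest at 1.65.

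Per length, the 7 genes spanned a wide range of levels, and the enzyme that makes T3 stood at the top. The level per kilobase of annotated exon averaged 64.9 ± 8.82 CPM per kb for Dio1 (SD, n = 21 libraries here and below) and 45.9 ± 6.23 CPM per kb for Klf9. It averaged 19.0 ± 1.55 CPM per kb for Thra and 12.1 ± 0.999 CPM per kb for Thrb. The level was 5.90 ± 1.22 CPM per kb for Crym, 2.81 ± 0.266 CPM per kb for Slc16a10 and 1.65 ± 0.401 CPM per kb for Pax8. The ranges of Dio1 (47.4 to 78.5 CPM per kb) and Klf9 (32.5 to 58.9 CPM per kb) overlapped over the libraries, although Dio1 was above Klf9 in 21 of 21. Slc16a10 (2.43 to 3.50 CPM per kb) and Pax8 (1.07 to 2.55 CPM per kb) also overlapped, with Slc16a10 above Pax8 in 20 of 21 libraries. No other pair of neighbours in this order overlapped. With the longest transcript as the length the order was the same, from 75.7 CPM per kb for Dio1 to 2.95 CPM per kb for Pax8.

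Pax8 (ENSMUSG00000026976) lies on the minus strand of mouse chromosome 2, from 24420560 to 24475599 on GRCm38 (mm10). Its promoter is shown because Pax8 had the largest change of the 7 genes at 2.5%, and those of Dio1 and Klf9 are shown beside it because they had the highest levels per length. Each window runs 5′ to 3′ in the direction of the gene, from 250 bases before to 50 bases after the start annotated by RefSeq on GRCm38.p6. The windows are chr2:24475550-24475849 (minus strand), chr4:107307119-107307418 (minus strand) and chr19:23140976-23141275 (plus strand). Capitals mark matches to any of 5 short motifs on either strand.
Pax8: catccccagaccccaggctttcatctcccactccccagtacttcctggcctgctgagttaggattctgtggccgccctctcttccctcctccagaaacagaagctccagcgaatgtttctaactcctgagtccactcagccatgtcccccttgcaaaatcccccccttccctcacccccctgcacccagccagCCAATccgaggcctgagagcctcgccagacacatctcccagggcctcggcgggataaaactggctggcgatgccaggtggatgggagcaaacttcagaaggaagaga
Dio1: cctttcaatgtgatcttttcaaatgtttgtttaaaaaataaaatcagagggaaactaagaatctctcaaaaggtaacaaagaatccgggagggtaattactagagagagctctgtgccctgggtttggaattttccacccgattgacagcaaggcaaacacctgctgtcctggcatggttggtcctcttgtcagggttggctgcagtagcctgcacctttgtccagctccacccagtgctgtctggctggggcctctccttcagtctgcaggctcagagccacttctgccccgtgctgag
Klf9: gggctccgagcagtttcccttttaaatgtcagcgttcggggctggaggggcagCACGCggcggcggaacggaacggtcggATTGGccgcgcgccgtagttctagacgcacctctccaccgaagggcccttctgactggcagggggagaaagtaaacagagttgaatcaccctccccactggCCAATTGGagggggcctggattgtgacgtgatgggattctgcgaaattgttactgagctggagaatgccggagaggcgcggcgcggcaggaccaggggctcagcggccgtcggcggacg

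The motifs searched were AGGTCA (the half-site of nuclear receptors), GCGTG (the core of the aryl hydrocarbon receptor element), CACGTG (an E-box read by clock factors), TATAAA and CCAAT. Among 32851 RefSeq mouse promoters of the same length, 16.3% held AGGTCA, 32.4% held GCGTG, 7.15% held CACGTG, 13.6% held TATAAA and 37.4% held CCAAT. The Pax8 window held 1 CCAAT and none of the others, and the Dio1 window held none of the 5. The Klf9 window held 1 GCGTG and 3 CCAAT, 2 of which overlap on opposite strands at bases 182 to 189. RefSeq entries were matched for 5 of the 7 genes, in 6 windows. Slc16a10 held 2 GCGTG and 2 CCAAT. Of the 2 windows of Thrb, the upstream one held 1 AGGTCA and 3 GCGTG, and the other held 1 CACGTG and 1 TATAAA. Crym and Thra are named only. The Klf9 window had 28 CG dinucleotides and a GC content of 63.3%, the Pax8 window 7 and 59.3%, and the Dio1 window 3 and 49.7%, against a median of 7 CG dinucleotides over all promoters. A match describes the letters only.

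At 2.5% broccoli powder Pax8 RNA was higher in every mouse than in any mouse of the other 3 diets. Pax8 was at 8.93, 9.95, 7.56, 6.49, 8.42 and 7.83 CPM in the 6 libraries at 0% and at 10.3, 8.94, 9.60, 11.1 and 9.85 CPM at 0.5%. It was at 10.6, 7.22, 8.75, 7.55 and 8.82 CPM at 1.0% and at 11.7, 13, 14.7, 15.5 and 12.8 CPM at 2.5%. The lowest library at 2.5% thus stood just above the highest of the other 16, while the other 3 diets overlapped one another. Of the 15652 genes tested, 4 (0.0256%) had all 5 libraries at 2.5% above all 16 others, and these were Pax8, Cyp2c23, Mynn and Gm19410 (named after their values were seen). Since the rule picked Pax8 for its rise, its place among them is a description.

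Pax8 averaged 13.5 ± 1.51 CPM at 2.5% (SD, n = 5) and 8.20 ± 1.19 CPM at 0% (n = 6), a log2 change of 0.72 ± 0.11 (SE) with a 95% interval of 0.49 to 0.96. That is a ratio of 1.65, with an interval of 1.40 to 1.95. These intervals do not allow for the picking of Pax8 by its rise, which can make the change look larger. These levels rest on 401 to 581 counts of Pax8 per library at 2.5% and 237 to 385 at 0%. Against the mean of the 0.5% and 1.0% diets, the log2 difference of Pax8 at 2.5% was 0.55 ± 0.10 (SE). Its slope over all diets was 0.27 ± 0.05 log2 units (SE) per 1% of broccoli powder. Of all genes, 0.0703% passed the threshold in the first of these comparisons and 0.147% in the second. Both share the 2.5% libraries with the comparison that picked the gene, so no p is given for Pax8 and nothing is read from its passing or not. In bulk RNA a higher level per cell and a larger share of cells that make the transcript cannot be told apart.

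At the lower doses Pax8 averaged 9.97 ± 0.825 CPM at 0.5% and 8.58 ± 1.32 CPM at 1.0% (SD, n = 5 each). Against 0%, the log2 change was 0.28 ± 0.12 (SE, 95% interval 0.05 to 0.52) at 0.5%, with 2 of 5 libraries above all controls. At 1.0% it was 0.07 ± 0.12, with 1 of 5. Neither passed edgeR's quasi-likelihood test over all genes, with adjusted p = 0.685 at 0.5% and 0.999 at 1.0% (Benjamini-Hochberg). Both comparisons share the 6 controls with each other and with the one that picked Pax8. Pax8 at 1.0% minus 0.5%, which shares no library with the rule's comparison, was −0.22 ± 0.12 in log2 units (95% interval −0.46 to 0.03, edgeR adjusted p = 0.734).

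Pax8 was the one Pax gene with a mean above 1 CPM. All 9 family members were in the table, and 4 of them were tested. Pax6 averaged 0.778 CPM over the 21 libraries, Pax5 0.775 CPM and Pax4 0.169 CPM. Pax6 and Pax4 act in enteroendocrine cells and Pax5 in B cells. At 2.5% against 0%, Pax5 differed by 0.55 ± 0.45, Pax4 by 0.20 ± 0.62 and Pax6 by −0.09 ± 0.30 in log2 units (SE), none past the threshold (edgeR adjusted p = 0.754, 0.945 and 0.950). Exons of Pax8 share 367 bases with Gm13415 on the opposite strand, a gene not analysed here. Whether reads were counted by strand is not given in the sources used here, so Pax8 counts are uncertain to that extent.

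**Figure D2:**
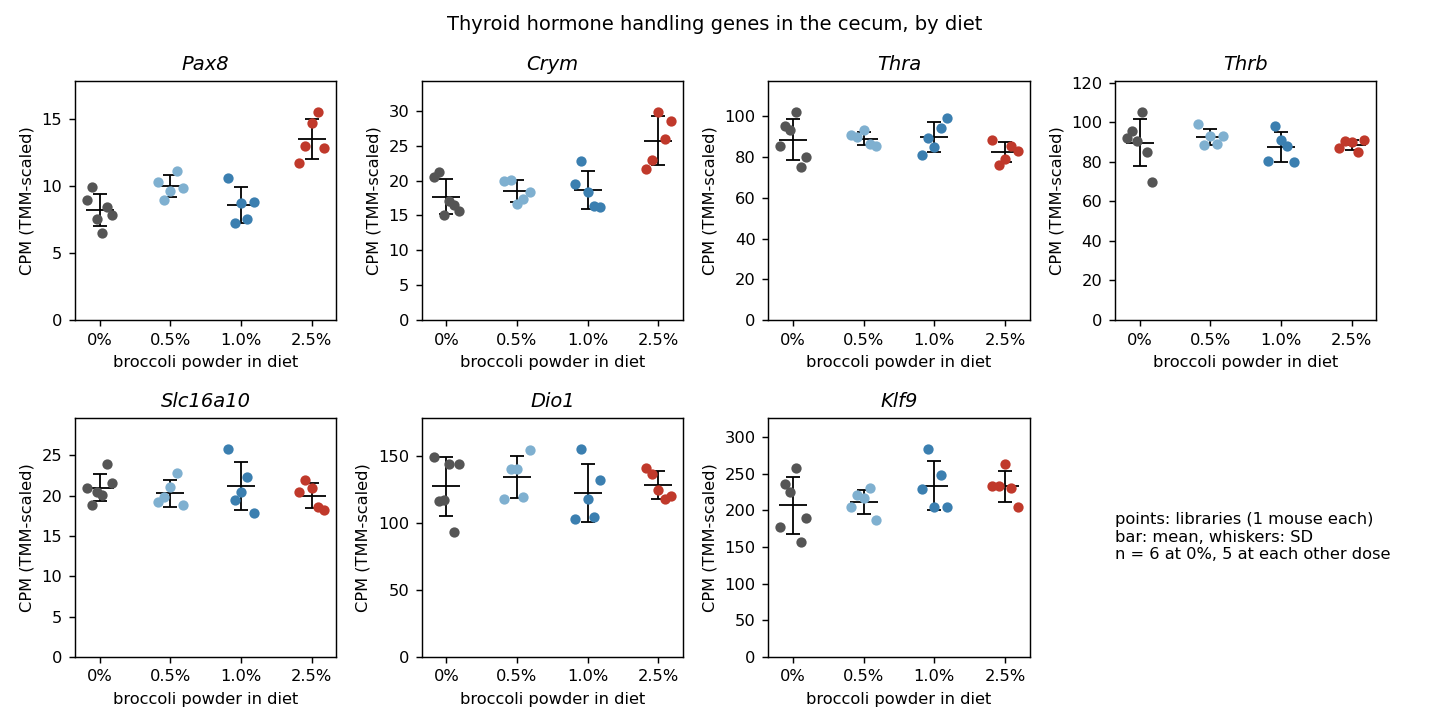
CPM (TMM-scaled) of the 7 genes by dose of broccoli powder, with 1 point per library, the mean as a bar and the SD as whiskers (n = 6 at 0% and 5 at each other dose). Pax8 at 2.5% (11.7 to 15.5 CPM) lies above all other libraries, and Crym at 2.5% (21.6 to 29.8 CPM) above all 6 at 0%, and both genes were picked for this rise. The other 5 genes overlap between diets.

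Crym encodes mu-crystallin, a cytosolic protein that binds T3 in the presence of NADPH and also reduces ketimines. The gene (ENSMUSG00000030905) lies on the minus strand of chromosome 7, from 120186380 to 120202111. Crym was at 20.5, 21.2, 15.1, 17.1, 16.5 and 15.7 CPM in the libraries at 0% and at 20, 20.1, 16.6, 17.3 and 18.4 CPM at 0.5%. It was at 19.5, 22.8, 18.3, 16.3 and 16.2 CPM at 1.0% and at 21.6, 22.9, 29.8, 25.9 and 28.5 CPM at 2.5%. All 5 libraries at 2.5% were above all 6 at 0%, as for 71 of the 15652 genes (0.454%), but replicate 2 at 1.0% (22.8 CPM) was above replicate 1 at 2.5% (21.6 CPM).

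Crym averaged 25.7 ± 3.50 CPM at 2.5% (SD, n = 5) and 17.7 ± 2.55 CPM at 0% (n = 6). The log2 change was 0.54 ± 0.11 (SE), with a 95% interval of 0.32 to 0.77, or a ratio of 1.46. Here too the interval does not allow for the picking of the gene by its rise. At 2.5% Crym rested on 738 to 1175 counts per library, and at 0% on 475 to 758. Against the mean of the 0.5% and 1.0% diets the log2 difference was 0.47 ± 0.10, and the slope was 0.22 ± 0.04 per 1% of broccoli powder (SE), again given as a description because the 2.5% libraries chose the gene. At the lower doses Crym averaged 18.5 ± 1.60 CPM at 0.5% and 18.6 ± 2.74 CPM at 1.0% (SD, n = 5 each), with log2 changes of 0.06 ± 0.11 and 0.07 ± 0.11 (SE, edgeR adjusted p = 0.913 and 0.999). Crym at 1.0% minus 0.5% was 0.01 ± 0.11 in log2 units (95% interval −0.22 to 0.24, edgeR adjusted p = 0.986).

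Across the whole table, 17 of 15652 genes (0.109%) passed an adjusted p under 0.05 at 2.5% against 0% by edgeR's quasi-likelihood test, and 2 of the 7 genes were among them, Pax8 and Crym. This restates how the pair was picked, and nothing is read from it. When only the 2.5% and 0% libraries were fitted, no gene passed edgeR's test (976 had an unadjusted p under 0.05), at log2 changes of 0.72 for Pax8 and 0.54 for Crym. Without replicate 3, 4 or 5 at 2.5%, each left out in turn, 0 genes passed as well. Over the 21 such fits the log2 change was 0.67 to 0.78 for Pax8 and 0.48 to 0.60 for Crym, and Pax8 was not among the genes that passed in 3 of 21 and Crym in 16 of 21. At 1.0% against 0%, 0 genes passed (0.0%, with 498 or 3.18% at an unadjusted p under 0.05 and 0 by DESeq2). At 0.5% against 0% 1 gene passed (0.00639%). At 1.0% against 0.5% 0 passed (0.0%, with 1103 or 7.05% at an unadjusted p under 0.05 and 2 by DESeq2). None of the 7 genes was called in these 3 comparisons, and none of the 5 added genes was called at 2.5% against 0%.

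**Figure D3:**
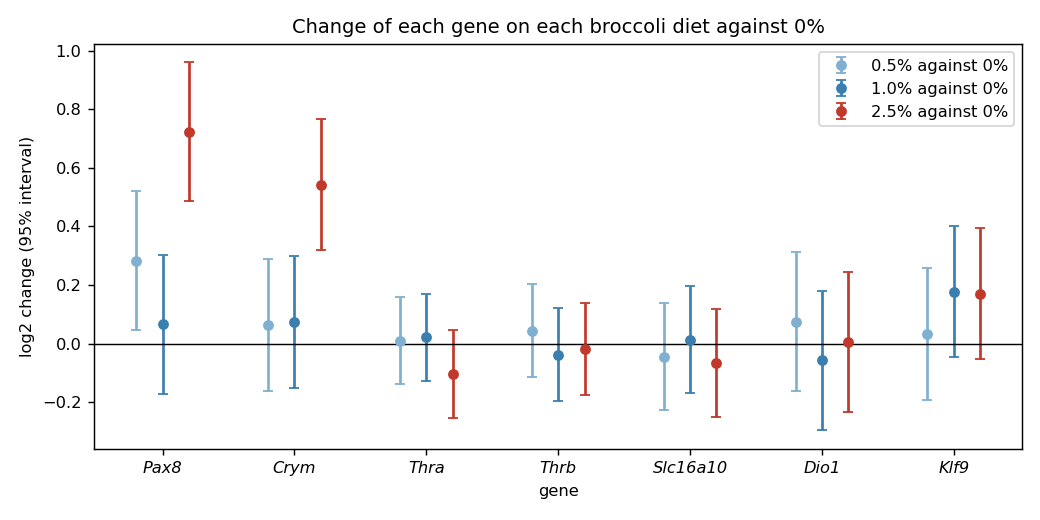
The log2 change of each gene at 0.5%, 1.0% and 2.5% broccoli powder against 0%, with 95% intervals from edgeR. The 3 doses share the 6 control libraries. Pax8 and Crym, at 0.72 and 0.54 at 2.5%, were picked for their rise in that comparison, and their intervals there do not allow for the picking. The interval of Pax8 at 0.5%, from 0.05 to 0.52, leaves out 0 as well, but is not adjusted over genes (edgeR adjusted p = 0.685). The intervals of the other 5 genes include 0 at every dose.

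The receptors showed no change that passed the test. Thra (ENSMUSG00000058756, plus strand of chromosome 11, 98740638 to 98769006) encodes the alpha receptor, and Thrb (ENSMUSG00000021779, plus strand of chromosome 14, 17660261 to 18038090) the beta receptor. Thra was at 88.5, 76, 78.9, 85.4 and 83.1 CPM at 2.5%, against a lowest of 75.1, a median of 89.4 and a highest of 102 CPM at 0%. All 5 libraries lay inside the range of the controls. Thra averaged 82.4 ± 4.97 CPM at 2.5% (SD, n = 5) and 88.5 ± 10.0 CPM at 0% (n = 6), a log2 change of −0.10 ± 0.07 (SE, 95% interval −0.25 to 0.05, edgeR adjusted p = 0.710).

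Thrb was at 87.1, 90.4, 89.8, 85.0 and 90.8 CPM at 2.5%, against a lowest of 70, a median of 91.4 and a highest of 105 CPM at 0%. The 2.5% libraries were close together and inside the control range. The means were 88.6 ± 2.52 CPM at 2.5% and 89.7 ± 11.8 CPM at 0% (SD), a ratio of 0.987 with a 95% interval of 0.884 to 1.10 (edgeR adjusted p = 0.962). At 0.5% and 1.0% the log2 changes against 0% were 0.01 ± 0.07 and 0.02 ± 0.07 for Thra and 0.04 ± 0.08 and −0.04 ± 0.08 for Thrb (SE, edgeR adjusted p = 0.982, 0.999, 0.915 and 0.999).

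Exons of Thra share 263 bases with Nr1d1, the clock repressor REV-ERB alpha, which is read from the opposite strand. Reads of the pair cannot be told apart if the counting ignored strand, which is not given in the sources used here. Nr1d1 ranged far more widely than Thra. It was at 87.4, 55.3, 156, 111 and 64.3 CPM at 2.5%, against 24.3 to 81.0 CPM at 0%. The Nr1d1 means were 94.9 ± 40.6 CPM at 2.5% and 51.9 ± 23.2 CPM at 0% (SD), a log2 change of 0.87 ± 0.32 (SE) that did not pass (edgeR adjusted p = 0.474). In replicate 3 at 2.5%, which had the highest Nr1d1, Thra was at 78.9 CPM, rank 19 of 21 from the highest.

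Slc16a10 encodes the transporter MCT10, which carries aromatic amino acids and T3 across the membrane (ENSMUSG00000019838, minus strand of chromosome 10, 40033532 to 40142258). It was at 20.4, 22, 21, 18.6 and 18.2 CPM at 2.5%, against a lowest of 18.9, a median of 20.7 and a highest of 23.9 CPM at 0%. Replicates 4 and 5 at 2.5% were below all controls and the other 3 were among them. The means were 20 ± 1.59 CPM at 2.5% and 21 ± 1.68 CPM at 0% (SD), a log2 change of −0.07 ± 0.09 (SE, 95% interval −0.25 to 0.12, edgeR adjusted p = 0.851). Against 0%, the log2 change of Slc16a10 was −0.05 ± 0.09 at 0.5% and 0.01 ± 0.09 at 1.0% (SE, edgeR adjusted p = 0.924 and 0.999).

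Dio1 encodes the type 1 deiodinase, a selenium-containing enzyme that removes iodine from T4 to give T3 and clears reverse T3 (ENSMUSG00000034785, minus strand of chromosome 4, 107291465 to 107307169). It was at 141, 136, 124, 118 and 120 CPM at 2.5%, against a lowest of 93.3, a median of 131 and a highest of 149 CPM at 0%. All 5 libraries lay inside the control range. Dio1 averaged 128 ± 10.4 CPM at 2.5% and 127 ± 22 CPM at 0% (SD), a ratio of 1.00 with a 95% interval of 0.850 to 1.18 (edgeR adjusted p = 0.993). Without 6 libraries with high small intestine markers, named further on, its log2 change was −0.16 (edgeR adjusted p = 0.569). At 2.5% that fit keeps only replicates 3, 4 and 5. At 0.5% and 1.0% the log2 changes of Dio1 were 0.08 ± 0.12 and −0.06 ± 0.12 (SE, edgeR adjusted p = 0.898 and 0.999). The other deiodinases were scarce, with Dio2, which also makes T3, at a mean of 1.03 CPM and Dio3, which inactivates T4 and T3, at 0.185 CPM over the 21 libraries.

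Klf9 encodes a Krüppel-like transcription factor whose gene is induced by T3 and by glucocorticoids (ENSMUSG00000033863, plus strand of chromosome 19, 23141226 to 23168134). It was at 234, 234, 264, 231 and 204 CPM at 2.5%, against a lowest of 157, a median of 207 and a highest of 258 CPM at 0%. Replicate 3 at 2.5% was above all controls and the other 4 were among them. Klf9 averaged 233 ± 21.3 CPM at 2.5% and 207 ± 38.9 CPM at 0% (SD), a log2 change of 0.17 ± 0.11 (SE, 95% interval −0.05 to 0.40, edgeR adjusted p = 0.681). The log2 change of Klf9 was 0.03 ± 0.11 at 0.5% and 0.18 ± 0.11 at 1.0% (SE, edgeR adjusted p = 0.964 and 0.999). The interval at 2.5% includes 0 and also a ratio of up to 1.32.

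**Figure D4:**
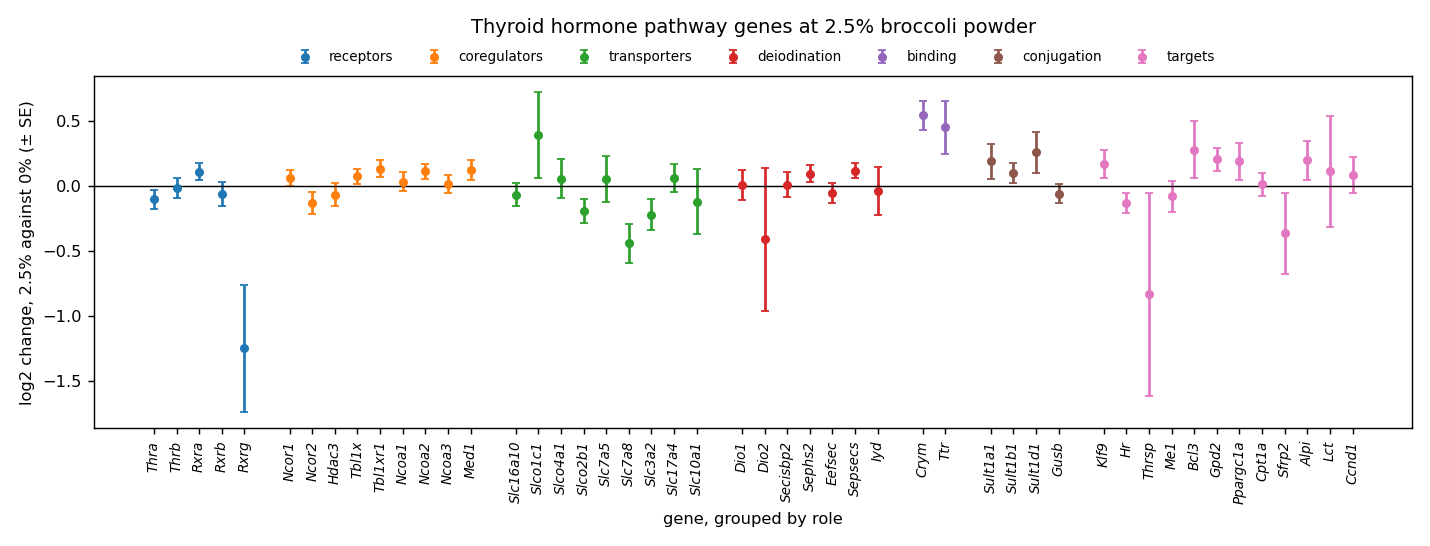
The log2 change (± SE) of all but 1 of the tested thyroid hormone pathway genes at 2.5% against 0%, grouped by role. Crym, at 0.54, was picked for its rise in this comparison, none of the other genes passed the threshold, and Rxrg, at a mean of 0.207 CPM at 2.5% and 0.493 CPM at 0%, has the lowest value, −1.25.

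The wider pathway held 55 genes in 7 lists (receptors and their RXR partners, coregulators, transporters, deiodination and selenium, binding, conjugation, targets), of which 54 were in the table and 49 were tested. Crym, picked for its rise, is 1 of the 49 and is left out of the next counts. At 2.5% against 0%, none of the other 48 was called, beside 0.109% of all genes. The median log2 change of the 48 was 0.02, with 28 above 0, beside a median of −0.01 and 46.9% above 0 over all genes tested. At an unadjusted p under 0.05 there were 2 higher (Ttr and Gpd2) and 2 lower (Rxrg and Slc7a8) of 48, beside 8.43% of all genes in either direction, 4.77% higher and 3.66% lower. Over all 49, the median at 1.0% against 0% was −0.003 with no gene at an unadjusted p under 0.05, and at 0.5% it was 0.04 with 3 higher and 1 lower at that level, beside 7.14% of all genes. The 3 comparisons share the 6 controls.

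The genes with the lowest p in these lists did not pass the adjusted test. Slc7a8, a light chain of amino acid exchangers that also carries T3, averaged 17.3 ± 4.22 CPM at 2.5% and 23.4 ± 5.12 CPM at 0% (SD), a log2 change of −0.44 ± 0.15 (SE, edgeR adjusted p = 0.392). Ttr, transthyretin, which carries T4 in blood, averaged 8.91 ± 2.89 CPM at 2.5% and 6.54 ± 1.19 CPM at 0%, a log2 change of 0.45 ± 0.20 (edgeR adjusted p = 0.551). Gpd2, the mitochondrial glycerol phosphate dehydrogenase and a known T3 target, averaged 132 ± 5.75 CPM at 2.5% and 115 ± 12.7 CPM at 0%, a log2 change of 0.20 ± 0.09 (edgeR adjusted p = 0.528). Rxrg, an RXR partner of the receptors, was near the detection limit at 0.207 ± 0.154 CPM at 2.5% and 0.493 ± 0.236 CPM at 0% (edgeR adjusted p = 0.488). The main RXR partner in this tissue, Rxra, averaged 230 ± 20.7 CPM at 2.5% and 213 ± 8.69 CPM at 0%. Among transporters Slc17a4 was the most abundant of those named, at a mean of 237 CPM over the 21 libraries.

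Klf9 also answers to glucocorticoids and follows the clock, so genes of both were counted. The 8 tested glucocorticoid genes were targets, the receptor Nr3c1 and Hsd11b2, an enzyme that inactivates glucocorticoids. At 2.5% none of the 8 was called, 3 were above 0 and 1 was lower at an unadjusted p under 0.05, beside 3.66% of all genes. That was Tsc22d3 (GILZ), at 49.4 ± 5.48 CPM at 2.5% and 64.1 ± 17 CPM at 0% (log2 change −0.38 ± 0.15, edgeR adjusted p = 0.493). Of 15 tested clock genes none was called, 12 were above 0 and 4 were higher at an unadjusted p under 0.05, with a median log2 change of 0.28. Over all genes tested, 46.9% were above 0 and 4.77% were higher at that level. The shift was not limited to 2.5%, and part of the list went the other way. At 1.0% against 0% the clock median was 0.31, with 3 higher and 0 lower at that level (3.18% of all genes in either direction). At 0.5% against 0% it was 0.01, with 0 higher and 2 lower (7.14%), and at 1.0% against 0.5% it was 0.43, with 5 higher and 3 lower (7.05%). Of the 15 clock genes, 10 were above 0 at 1.0% against 0%, beside 7726 of all 15652 genes. At 1.0% against 0.5%, 10 were above 0 as well, beside 8142 of all genes. Ciart, a clock repressor, averaged 8.07 ± 3.42 CPM at 2.5% and 4.98 ± 1.08 CPM at 0% (log2 change 0.70 ± 0.23, edgeR adjusted p = 0.389).

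The genes most like Pax8 over the 21 libraries were Mpzl3 (Pearson r = 0.842 of log2 CPM), Tjp1 (0.820), Pnrc1 (0.819), Ttc16 (0.818) and Anks4b (0.815), out of 13192 compared. For Crym they were Mpp5 (0.860), Anks4b (0.846), Rnf103 (0.845), Rasgef1b (0.844) and Rundc3b (0.833). Tjp1 is the tight junction protein ZO-1, Mpp5 (PALS1) is a polarity protein of epithelia, and Anks4b is a scaffold of brush border microvilli. The roles of the other named genes are not given, and no shared role is read from these lists. Anks4b stood in both lists by Pearson r, and averaged 286, 348, 311 and 419 CPM at 0%, 0.5%, 1.0% and 2.5%. Mpzl3 averaged 58.1, 66.3, 59.3 and 74.6 CPM in the same order of diets. Part of each correlation is the shared difference between diets. With the diet means removed, r with Pax8 was 0.740 for Mpzl3, 0.571 for Tjp1 and 0.552 for Anks4b, and r with Crym was 0.798 for Mpp5 and 0.762 for Anks4b. When the likeness was ranked by Spearman's rho instead, 1 of the 5 genes stayed for Pax8 (Mpzl3) and 1 of 5 for Crym (Mpp5). Tjp1 and Anks4b did not stay. All points share the same libraries and scaling, so these are descriptions.

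Within diets the 7 genes did not vary as a block. Of 21 pairs, compared on deviations from the diet means over 21 libraries, the largest correlation was between Thra and Slc16a10, with r = −0.622 and rho = −0.578 (permutation p = 0.00402 and 0.0136, or 0.0844 and 0.286 after Benjamini-Hochberg adjustment over the 21 pairs). Without the 2 libraries farthest from the median of Thra, r was −0.590. The part of the libraries with high small intestine markers, named further on, in this correlation was not tested. Pax8 and Crym gave r = 0.303 and rho = 0.322 (permutation p = 0.246 and 0.210, or 0.510 and 0.479 adjusted), and r = 0.304 without the 2 farthest libraries. No pair passed the adjustment.

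**Figure D5:**
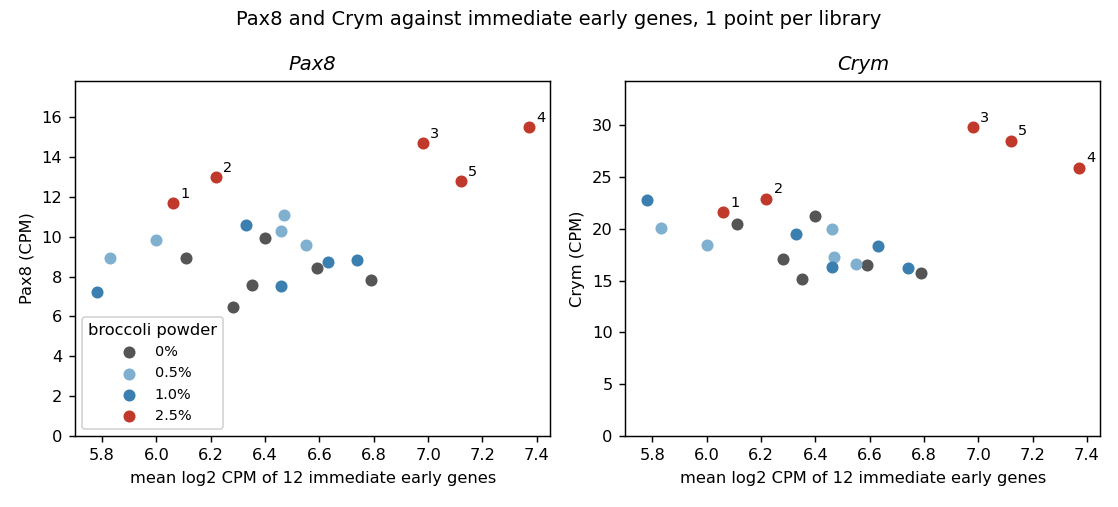
Pax8 and Crym in CPM against the mean log2 CPM of 12 immediate early genes, with 1 point per library coloured by diet and the 2.5% libraries numbered by replicate. Replicates 3, 4 and 5 at 2.5% have the highest marker means (6.98, 7.37 and 7.12) and the highest Crym, and replicates 1 and 2 have marker means of 6.06 and 6.22 with Pax8 at 11.7 and 13 CPM.

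Libraries differed in markers that moved with some of these values. The mean log2 CPM of 12 immediate early genes, which respond within minutes to a stimulus, was 6.06, 6.22, 6.98, 7.37 and 7.12 in the 5 libraries at 2.5%. It lay between 5.78 and 6.79 in the other 16. Their summed level ran from 2110 to 4430 CPM at 2.5% and from 2270 to 2720 CPM at 0%, and 5 of the 12 were higher at 2.5% at an unadjusted p under 0.05 (4.77% of all genes), with none called by edgeR. Replicates 1 and 2 at 2.5%, inside the marker range of the other diets, had Pax8 at 11.7 and 13 CPM, above all 16 libraries of the other diets, and Crym at 21.6 and 22.9 CPM, above all 6 controls. These values belong to the comparison that picked both genes and are given as a description. The next 2 fits were added after seeing the data. Without replicates 3, 4 and 5 the log2 change at 2.5% against 0% was 0.59 for Pax8 and 0.33 for Crym, and neither was called. With the marker mean as a covariate it was 0.65 for Pax8 and 0.56 for Crym, and again neither was called. The first of these 2 fits keeps only replicates 1 and 2 at 2.5%, both high in small intestine markers.

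Markers of small intestine and Paneth cells were high in 6 libraries, with list means of 5.49 in replicate 5 at 0%, 3.62 and 4.29 in replicates 1 and 4 at 0.5%, 6.20 in replicate 1 at 1.0%, and 3.70 and 3.53 in replicates 1 and 2 at 2.5%. The other 15 lay between 1.06 and 2.21. All 12 markers were in the table, 10 were tested and none was at 0 throughout, and the summed level ran from 550 to 748 CPM at 2.5% and from 458 to 1120 CPM at 0%. In the highest of these, replicate 1 at 1.0%, Slc16a10 was at 25.8 CPM, Dio1 at 103 CPM and Thra at 81.1 CPM. In replicate 5 at 0% Slc16a10 was at 23.9 CPM, Dio1 at 93.3 CPM and Thra at 75.1 CPM. In both of these libraries Slc16a10 was the highest, and Dio1 and Thra the lowest, of their diet. The other 4 shared this in part or not at all. Replicate 2 at 2.5% had the highest Slc16a10 (22 CPM) and the lowest Thra (76 CPM) of its diet, but not the lowest Dio1. Replicate 4 at 0.5% had the highest Slc16a10 (22.8 CPM) of its diet, but not the lowest Dio1 or Thra. Replicate 1 at 0.5% had the lowest Dio1 (118 CPM) of its diet. Its Slc16a10 was at 19.2 CPM, within the range of that diet, and its Thra was the second highest (90.7 CPM). Replicate 1 at 2.5% had instead the highest Dio1 (141 CPM) and Thra (88.5 CPM) of its diet. Without the 6 libraries the log2 change at 2.5% against 0% was 0.81 for Pax8 and 0.65 for Crym. At 2.5% that fit keeps only replicates 3, 4 and 5, the libraries highest in immediate early genes. The 2 marker differences therefore cannot be told apart within that diet. Smooth muscle markers, 8 of 9 tested and Synm listed at 0, summed to 1480 to 3620 CPM at 2.5% and 1770 to 3780 CPM at 0%. With their mean as a covariate the log2 change was 0.69 for Pax8 and 0.51 for Crym, and Crym was not called. Enteroendocrine markers, 8 of 10 tested, summed to 79.6 to 122 CPM at 2.5% and 50.2 to 88.8 CPM at 0%, with Neurod1 listed at 0, and their part in the result was not tested.

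Blood and proliferation markers also moved with replicates 3, 4 and 5 at 2.5%. Blood markers, 4 of 5 tested and Alas2 listed at 0, summed to 3.91 to 6.00 CPM at 2.5% and 6.46 to 7.99 CPM at 0%. The 2 diets did not overlap in this sum, but met at 0.29 in the list mean. Their mean log2 CPM was 0.29, 0.23, −0.18, −0.36 and −0.65 in the 5 libraries at 2.5% and between 0.29 and 0.62 at 0%. None of the 4 was called, all 4 were below 0 and 2 were lower at an unadjusted p under 0.05, with a median log2 change of −0.67. Beside these, 0.109% of all genes were called, 3.66% were lower at that level and 46.9% were above 0, with a median of −0.01. Proliferation markers, all 11 tested, had a mean log2 CPM of 3.95, 4.32, 4.72, 4.76 and 4.48 at 2.5% and between 4.06 and 4.60 at 0%, so these diets overlapped, and the summed level ran from 270 to 490 CPM at 2.5% and from 275 to 468 CPM at 0%. All 11 were above 0 at 2.5% against 0% (46.9% of all genes), 1 was higher at an unadjusted p under 0.05 (4.77% of all genes) and none was called. The part of blood and proliferation markers in the levels of Pax8 and Crym was not tested.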

How the data were processed

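The deposited table holds raw counts for every gene in 21 cecum libraries, each matched by name to a sample, and 0 columns were left over. Libraries were made with a stranded mRNA kit, per the labels' protocols, and the genome build is mm10, per the submitters' processing notes. The aligner, counting tool and strand setting were not given in the sources used here. Gene names and coordinates come from GENCODE M21 (25268 of 25361 identifiers matched), and promoters from RefSeq. Groups follow the diet label. Replicate numbers follow accession order and pair nothing. Library names carry different animal numbers, so libraries were taken as separate mice. Most of these numbers run in blocks by diet, so numbering and diet cannot be told apart. No pair of libraries within a diet agreed within sampling noise (lowest chi-square per degree of freedom 17.1 over 45 pairs).

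The test was that of edgeR 4.0.16 under R 4.3.3 (TMM, filterByExpr by diet, robust quasi-likelihood, 2-sided) in 1 fit of all 21 libraries, adjusted by Benjamini-Hochberg over 15652 genes, and called at an adjusted p under 0.05. The contrasts were each dose against 0%, 1.0% against 0.5%, 2.5% against the mean of 0.5% and 1.0%, and the slope on dose. The fit was tested on simulated data. Correlations used log2 CPM (prior count 2), with 100000 permutations for the pairs. Alternatives were DESeq2 1.42.0, limma 3.58.1 voom, other scalings, no filter, libraries left out and marker covariates. The genes, pathway lists and tests were chosen with earlier results of these data known. For each dose against 0% all 7 genes are given whatever their values. For the other contrasts values are given for Pax8 and Crym only, and none of the 5 added genes was called in them. Pathway list genes are given with a change only at 2.5% against 0%, up to 3 per list with the lowest p, and others by name or level. For Pax8 and Crym the 5 genes with the highest Pearson r were named (mean of at least 1 CPM, predicted genes left out). Some genes of the lists are counted in them but not reported here by name.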

Additional observations from a re-analysis of the deposited data

How the results depend on the processing

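No paired analysis was possible, because libraries were taken as separate mice on 1 diet each and the labels name no pairing between them. Genes called at 2.5% against 0% (17) came to 77 with DESeq2, 7 with library totals, 7 with limma voom, 5 without the 3 animals numbered above 70 (2 at 0.5% and 1 at 1.0%), 8 with a smooth muscle covariate, 121 without 6 libraries with high small intestine markers, and 0 with only the 2 diets fitted. For 2.5% against the mean of 0.5% and 1.0% (11) the counts were 44 with DESeq2, 5 with library totals, 3 with voom, 3 with a small intestine covariate, 111 without the 6 libraries, and 0 with only those diets, without animals above 70 or with the smooth muscle covariate. For the slope (23) they were 52 with DESeq2, 9 with voom, 13 without animals above 70, 101 without the 6 libraries, 8 with the smooth muscle and 15 with the small intestine covariate, and 0 with dose as a rank. At 0.5% against 0% (1) they were 2 with DESeq2, 4 with the smooth muscle covariate and 0 with only those diets, without animals above 70 or without the 6 libraries, and at 1.0% against 0.5% (0) 2 with DESeq2.

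Pax8 and Crym were picked on the 2.5% libraries, so their calls in the comparisons with that diet describe the settings and support nothing. Of the 7 genes, 2 were called at 2.5% against 0%, and 1 (Pax8) with library totals, voom, the smooth muscle covariate or without animals above 70, and 0 with only the 2 diets fitted. Against the mean of the lower doses 1 was called, and 2 without the filter, with DESeq2 or without the 6 libraries, and 0 with library totals, only those diets, the smooth muscle covariate or without animals above 70. On the slope 2 were called, and 0 with dose as a rank. Of the alternatives, 2 were chosen after seeing the data: without the 3 libraries at 2.5% highest in immediate early genes, and with those genes as a covariate, the counts of genes and of the 7 were 0 in every comparison. Leaving out the 6 libraries keeps, at 2.5%, only the 3 libraries highest in immediate early genes. Within that diet these 2 ways of leaving out libraries cannot be told apart. The cause of the shifts between settings was not tested.

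Leaving out each library in turn gave 0 to 56 genes at 2.5% against 0%, 0 to 44 against the mean of the lower doses, 0 to 56 on the slope and 0 to 2 at 0.5% against 0%, with 0 to 2 of the 7 called in the first 3 of these. At 2.5% against 0% the count was 0 without replicate 3, 4 or 5 at 2.5%, 56 without replicate 1 and 53 without replicate 2. Pax8 kept a log2 change of 0.67 to 0.78 at 2.5% against 0% and lost its call in 3 of 21 (replicates 3, 4 and 5 at 2.5%), and Crym kept 0.48 to 0.60 and lost its call in 16 of 21. Of 1215 values of the uncalled genes among the 7 over all alternatives, 80 had the other sign, none larger than 0.16 in log2 units. Scaling by library totals moved the median of all genes at 1.0% against 0.5% to 0.12 log2 units, against 0.01 with TMM. Mitochondrial genes held 25.7 to 31.8% of the counts per library at 0.5% and 22.1 to 26.6% at 1.0%. Their part in this shift was not tested.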

Other observations

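Thyroid gland markers that the gut also makes were present at low to moderate levels. Of the 9 tested, none was called at 2.5% against 0% and 2 were above 0, with a median log2 change of −0.55. Among all genes tested, 0.109% were called and 46.9% were above 0, with a median of −0.01. Tshr, the receptor for thyrotropin, which is also made in fat, averaged 4.96, 3.9, 3.7 and 2.35 CPM at 0%, 0.5%, 1.0% and 2.5%, with single libraries between 0.419 and 9.07 CPM. Fat markers summed to 54.7 to 133 CPM per library at 2.5% and 58.2 to 180 CPM at 0%, and their part in the level of Tshr was not tested. Duox2 averaged 48.6 CPM at 2.5% and 75 CPM at 0%, within a range of 17.6 to 209 CPM over all libraries. The 209 CPM belongs to replicate 5 at 0%, where the thyroid gland markers summed to 240 CPM. In every other library that sum was at most 144 CPM. The 0% mean of Duox2 thus leans on 1 library, also high in small intestine markers, and no fall at 2.5% is read from it.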
